A study of Mus musculus with 4 samples.

Results

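Fatty acid-binding proteins are small cytoplasmic carriers, and the transcripts of 7 of them, Fabp1 to Fabp7, were examined in alveolar macrophages of wild-type (WT) mice and of mice lacking Bach2 (Bach2KO). The members were found on the array by the RefSeq accession of each probe. They had 8 probes, of 39429 on the array, and were 7 of 19751 named genes. Alveolar macrophages are the resident phagocytes of the airspaces, where they take up and break down surfactant lipid, and Bach2 is a transcription repressor that binds DNA together with small Maf proteins. The study compared both genotypes in the setting of surfactant homeostasis.

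The macrophages of 8 WT mice were pooled and sorted by flow cytometry, as were those of 3 Bach2KO mice by the series design text, or 4 by the treatment protocol. The gate, the strain, the age of the mice, the Bach2 allele and the cells in which it was lost are not given in the sources used here. Each genotype gave 1 RNA sample, and 2 portions of it were amplified, labelled with Cy3 and hybridised, so there are 2 WT and 2 Bach2KO arrays, numbered 1 and 2 within a genotype. Arrays of a genotype are therefore technical repeats. No biological replicate checks the genotype differences, no p-value can be given for them, and each ± is an SD over n = 2 arrays.

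Each array's values are log2 signals relative to that array's 75th percentile, so 0 is a probe at the 75th percentile and a difference of 1 is a 2-fold change. A probe was measured where it was well above background, as the scanner software defines it, on both arrays of at least 1 genotype. A call of higher or lower required a change of at least 2-fold, in the same direction, in all 4 comparisons of a Bach2KO array with a WT array. Where both arrays of a genotype were not well above background, the difference is a lower bound, written "at least", against the lowest signal that was well above background on each of those arrays or the probe's own, whichever was higher. Such a bound also had to reach 2-fold for a call. A gene with such a bound could only be called higher in the genotype where it was measured. Between 27125 and 27918 probes were well above background on an array, no spot was saturated, and the differences between repeats had an SD over genes of 0.26 for the WT arrays and 0.21 for the Bach2KO arrays. Across genotypes this SD was 1.16. The only Bach2 probe lay at the limit of detection, reading -6.32 and -6.28 in WT and -5.16 and -8.13 in Bach2KO, well above background on 2 of the 4, so it gave no check of the deletion. Of 20 alveolar macrophage markers, 20 were measured, 8 were called lower and 1 higher in Bach2KO, and the median difference was -0.13. The summed signal of these markers, in multiples of the 75th percentile and led by the brightest probes, as all such sums are, was 1974 and 1795 in WT and 1731 and 1746 in Bach2KO. Siglecf, the lectin that defines these cells in mouse lung, was 12.6-fold lower in Bach2KO but still well above background, at 1.66 ± 0.08 against 5.31 ± 0.10.

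Fatty acid-binding proteins hold long-chain fatty acids and related lipids in a beta-barrel cavity and carry them between membranes, lipid droplets, peroxisomes and the nucleus, where some hand their ligand to PPAR nuclear receptors. The members are usually named for the tissue where each is abundant: Fabp1 for liver, Fabp2 for intestine, Fabp3 for heart, Fabp4 for adipocytes, Fabp5 for epidermis, Fabp6 for ileum and Fabp7 for brain. Fabp4 and Fabp5 are the members best known from macrophages, and Fabp4 is also a classic PPAR-gamma target.

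The members moved apart. Fabp1 was 148-fold lower in Bach2KO, Fabp3, Fabp4, Fabp5 and Fabp7 were higher, and Fabp2 and Fabp6 were called neither way. The promoter windows of Fabp1 and Fabp7 are shown because these genes had the largest differences of the family, in opposite directions. Each is the 250 bases before the RefSeq start on the plus strand of GRCm38.p6 (RefSeq), at chr6:71199629-71199878 for Fabp1 and chr10:57784673-57784922 for Fabp7. Capitals mark matches to the motifs named after the sequences.
Fabp1: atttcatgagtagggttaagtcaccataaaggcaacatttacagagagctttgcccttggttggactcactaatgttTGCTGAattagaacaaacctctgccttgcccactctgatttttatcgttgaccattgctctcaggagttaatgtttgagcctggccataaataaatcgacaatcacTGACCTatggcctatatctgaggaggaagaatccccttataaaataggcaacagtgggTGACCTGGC
Fabp7: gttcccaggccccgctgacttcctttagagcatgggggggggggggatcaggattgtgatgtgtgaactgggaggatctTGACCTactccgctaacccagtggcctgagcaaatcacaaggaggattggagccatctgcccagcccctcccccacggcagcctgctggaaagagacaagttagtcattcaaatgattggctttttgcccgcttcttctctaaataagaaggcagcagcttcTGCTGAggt

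The motifs were searched on both strands of 32851 RefSeq windows. TGACNNNGC, the element of CNC and small Maf factors, was in 10.2% of them. TGANTCA, the AP-1 site and core of the Maf recognition element, was in 6.75%, the PU.1 site GAGGAAGT in 2.44% and the DR1 element of PPAR and RXR in 0.0335%. TGCTGA, the half-site of the Maf recognition element, and AGGTCA, the nuclear receptor half-site, were added after the windows had been read. They were in 16.1% and 14.0% of the windows. In Fabp1, TGACNNNGC matched bases 9 to 1 before the start, and the reverse strand of AGGTCA matched bases 9 to 4 within that same stretch. Fabp1 also held TGCTGA at bases 173 to 168 and the reverse of AGGTCA at bases 67 to 62. In Fabp7, TGCTGA was at bases 9 to 4 and the reverse of AGGTCA at bases 171 to 166. The windows of Fabp2, Fabp3 and Fabp6 held none of the 6 motifs. A window was available for 5 of the 7 members. Fabp4 and Fabp5 had none in the source used here, so they were not searched. These matches describe letters in a window and no binding was measured.

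Of the 7 members, 4 were called higher and 1 lower in Bach2KO, beside 8.37% and 5.9% of the 15123 measured genes. By probe, 5 of the 8 were called higher and 1 lower, beside 6.87% and 6.3% of 27795 measured probes. All 7 members were measured, 6 of them on all 4 arrays. Fabp7 was measured only through the Bach2KO arrays and so had to be higher there. Without it, 3 of 6 members were called higher and the median difference of the 6 was 0.98. With Fabp7 at its bound the median was 1.55, and over all measured genes it was 0.06. Counts for the other gene lists are read against the same shares and the same all-gene median. In bulk RNA of this kind, fewer cells expressing a gene and less of its RNA per cell cannot be told apart. The arrays of a genotype were neighbours on 1 slide, so slide position and genotype cannot be told apart either.

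**Figure D1:**
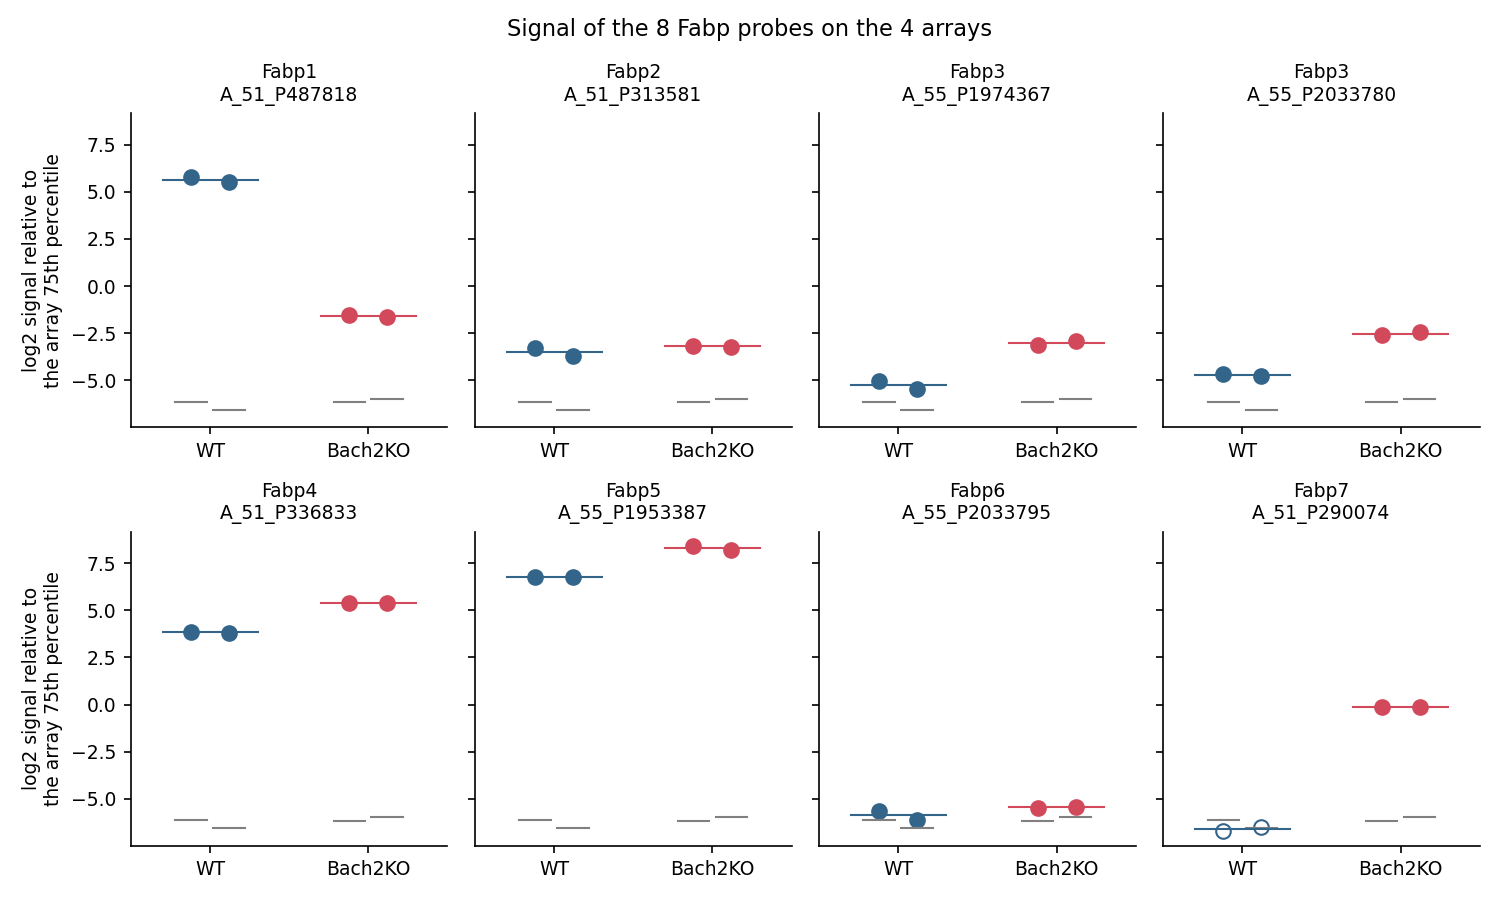
Log2 signal of the 8 Fabp probes on each of the 4 arrays, relative to the array's 75th percentile; filled points are well above background, open points are not, coloured lines are means of 2 arrays and grey dashes mark the lowest signal well above background on that array. Fabp1 falls from 5.64 to -1.57, Fabp3, Fabp4 and Fabp5 lie higher on both Bach2KO arrays, and the WT points of Fabp7 are open.

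Fabp1, the liver carrier that binds fatty acids, bile acids and heme, gave a bright signal in WT alveolar macrophages. Its probe gave processed signals of 69263 and 68859 in WT and 363 and 318 in Bach2KO. In log2 relative to the 75th percentile these were 5.77 and 5.51 against -1.51 and -1.62. The genotypes were far apart and the repeats of each were close. The mean fell from 5.64 ± 0.19 to -1.57 ± 0.08, a difference of -7.21 (range over the 4 array pairs -7.39 to -7.02), which is 148-fold lower (130-fold to 168-fold). Among 14585 genes measured in both genotypes this was the lowest difference of all, rank 1, and it stayed at rank 1 under every alternative processing that was tried except the mean of a gene's probes, where it was rank 2 of 14589. All 4 arrays remained well above background, so Fabp1 was still detected without Bach2.

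The genes closest to Fabp1 in pattern were found by the distance between the 4 centred log2 values, over 13713 named genes well above background on all 4 arrays. They were Wfdc10 at a distance of 0.25, C5ar1, the receptor for the complement fragment C5a, at 0.61, and Spag11b at 0.64. Their differences were -7.01, -6.66 and -6.63. This likeness is over 4 arrays of 2 RNA samples and mostly restates the size of the difference.

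**Figure D2:**
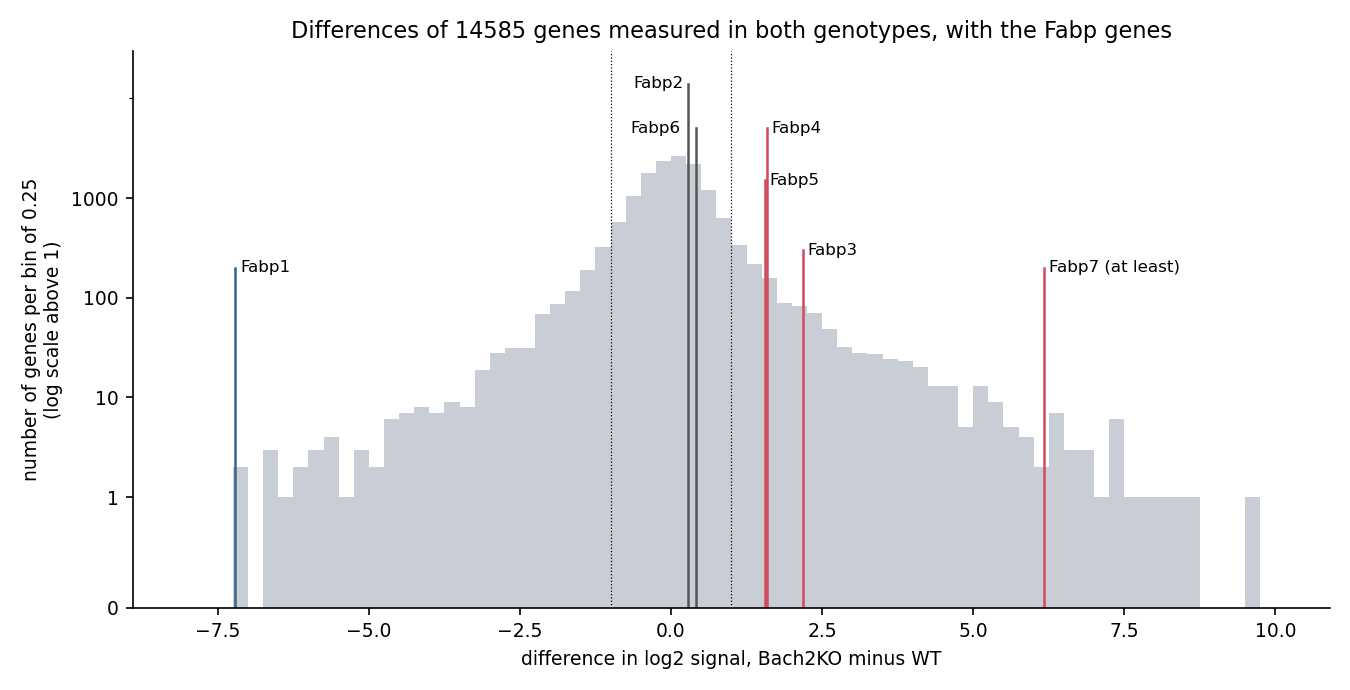
Number of genes per bin of 0.25 in the log2 difference, Bach2KO minus WT, for the 14585 genes measured in both genotypes (log scale above 1), with a line at each Fabp gene and dotted lines at 2-fold. Fabp1 at -7.21 is at the left end, Fabp2 and Fabp6 lie in the central mass, and Fabp7 is drawn at its bound of 6.18.

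Fabp2 and Fabp6, the intestinal members, differed little. The Fabp2 probe read -3.27 and -3.70 in WT and -3.18 and -3.23 in Bach2KO, a difference of 0.28 (0.04 to 0.52) with means of -3.48 ± 0.31 and -3.20 ± 0.03. Fabp6, the ileal bile acid carrier, read -5.63 and -6.11 in WT and -5.47 and -5.45 in Bach2KO, a difference of 0.41 (0.16 to 0.66). For both genes the Bach2KO arrays lay just above the WT arrays without overlap, but the difference was smaller than the gap between the WT repeats. The direction of both turned when the spike-in probes were set equal between arrays, to -0.44 for Fabp2 and -0.31 for Fabp6. The Fabp6 signal of 21.8 to 25.6 was only 1.36 to 1.63 times the lowest signal well above background on its array, so its level is little more than a detection.

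Fabp1, Fabp2 and Fabp6 are members known from liver and gut, and hepatocyte and enterocyte markers were read beside them. Of 17 such markers 8 were measured, with 0 called higher and 1 lower, a median difference of 0.22 and summed signals of 4.85 and 4.87 in WT and 5.0 and 4.68 in Bach2KO. Alb, Apoa1, Ttr and Vil1, which define hepatocytes and enterocytes, were among the 9 not measured. Lgals4, an intestinal galectin, was the called member at -1.80. Apoa2, an apolipoprotein of high-density lipoprotein, made up most of the sum at 3.97 and 4.08 in WT and 4.15 and 3.76 in Bach2KO. Without Apoa2 the sum was 0.881 and 0.785 in WT and 0.851 and 0.917 in Bach2KO. The part of such cells in the Fabp1 difference was not tested.

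Fabp3, the heart-type carrier of muscle fatty acid oxidation, was dim and higher in Bach2KO on both of its probes. The probe that stands for the gene gave signals of 50.8 and 55.1 in WT and 171 and 178 in Bach2KO, or -4.64 and -4.78 against -2.60 and -2.46 in log2. Its mean rose from -4.71 ± 0.10 to -2.53 ± 0.10, a difference of 2.18 (2.04 to 2.32) and 4.54-fold. The second probe gave 38.8 and 34.5 in WT and 120 and 131 in Bach2KO, a difference of 2.23 (1.92 to 2.55). Neither probe overlapped between genotypes, and their differences were close. On the WT arrays the signals were 2.15 to 3.43 times the lowest signal well above background, so the size depends on how background is treated. With a normexp background correction the difference was 1.29, still called, while the second probe gave 1.17 and was not. With normexp and quantile normalization it was 1.09 and not called. Fabp3 has a pseudogene copy that a probe may also bind.

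Of 12 heart and muscle markers, 6 were measured and Tnni3, Myl7, Actc1, Mb, Ttn and Pln were not. None was called higher, 1 (Tnnt2, cardiac troponin T) was called lower at -1.43 as a bound, and the summed signal was 0.278 and 0.256 in WT and 0.360 and 0.465 in Bach2KO. The median difference was 0.63. Myh7, a myosin heavy chain gene, gave 0.073 and 0.065 of the sum in WT and 0.117 and 0.213 in Bach2KO. Without Myh7 the sum was 0.205 and 0.191 in WT and 0.243 and 0.252 in Bach2KO. The part of these dim markers in the higher Fabp3 was not tested. The genes nearest to Fabp3 in pattern were Plau, the urokinase plasminogen activator, at a distance of 0.04 and a difference of 2.16, the lysosomal channel gene Mcoln2 at 0.05 and 2.16, and Il1rl1, the interleukin-33 receptor, at 0.07 and 2.24.

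Fabp4 and Fabp5, the adipocyte and epidermal carriers that macrophages also use, were bright in both genotypes and higher in Bach2KO by nearly the same factor. Fabp4 gave signals of 18392 and 20872 in WT and 44000 and 41579 in Bach2KO. In log2 these were 3.86 and 3.79 against 5.41 and 5.41, a difference of 1.59 (1.55 to 1.62) and 3.00-fold (2.93-fold to 3.08-fold). Both Bach2KO arrays lay above both WT arrays and the repeats were nearly equal. Fabp5 gave 135757 and 167440 in WT and 354627 and 291509 in Bach2KO. In log2 these were 6.74 and 6.79 against 8.42 and 8.22, a difference of 1.55 (1.43 to 1.68) and 2.93-fold (2.69-fold to 3.19-fold), again with no overlap. Fabp4 had rank 617 and Fabp5 rank 648 from the highest of 14585 genes. Fabp5 has a near-identical pseudogene copy, so its probe may bind more than 1 locus.

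The calls of Fabp4 and Fabp5 rest on the scaling. With 9 spike-in probes set equal between arrays every difference shifts by -0.72, and the differences became 0.86 and 0.83, in the same direction but not called. Quantile normalization gave 1.16 for Fabp5, which was not called either. The signals as deposited, with no scaling, were 2.18 times as high in Bach2KO for Fabp4 and 2.13 times for Fabp5.

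Fabp4 and Fabp5 lie in a cluster on chromosome 3 with other genes of the family, and in the RefSeq gene table the order is Pag1, Fabp5, Pmp2, Fabp9, Fabp4, Fabp12 and Impa1. Only Fabp5 and Fabp4 of these 7 genes were called. Pmp2, the myelin member, and Fabp9, the testis member, lie between them and were not well above background on any array, with signals of 3.21 to 4.04 and 6.57 to 10.8. Fabp12 was measured by 2 probes with differences of 0.17 and 0.07. Impa1, an inositol monophosphatase gene on the Fabp12 side, gave 0.33, and Pag1, an adaptor gene on the Fabp5 side, gave -0.94. These neighbours were chosen by position.

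The nearest genes to Fabp4 in pattern were Sgsm2 at a distance of 0.02 and a difference of 1.58, the phosphodiesterase gene Pde2a at 0.03 and 1.60, and Lgi4 at 0.04 and 1.62. Those nearest to Fabp5 were Vsig8 at 0.01 and 1.56, the lactate dehydrogenase gene Ldhd at 0.05 and 1.53, and Cpeb4, which binds polyadenylation elements, at 0.09 and 1.57.

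Adipocytes and endothelial cells also express Fabp4, and markers of both were read beside it. Of 10 adipocyte markers 7 were measured, with 0 called higher and 1 lower. Adipoq, Cfd and Car3 were not measured, and Plin1, the perilipin of fat droplets, was the lower member at -1.30. The summed adipocyte signal was 5.79 and 5.58 in WT and 7.94 and 7.61 in Bach2KO, with a median difference of 0.27. Acaca, the acetyl-CoA carboxylase of fatty acid synthesis, gave 5.23 and 5.06 of this in WT and 7.42 and 7.05 in Bach2KO. Without Acaca the sum was 0.550 and 0.520 in WT and 0.520 and 0.558 in Bach2KO, and the part of adipocytes in the higher Fabp4 was not tested. Of 13 endothelial markers 8 were measured, 3 were called higher and 1 lower, and Tek, Tie1, Emcn, Sox17 and Aqp1 were not measured. Cdh5, the cadherin of endothelial junctions, was higher by 4.41 and Vwf, the von Willebrand factor, by 1.36. The VEGF receptor gene Flt1 was lower at -5.46. The median was 0.29, but the summed endothelial signal went down, from 39.7 and 38.1 on the WT arrays to 30.7 and 30.9 on the Bach2KO arrays. Flt1, the brightest of these markers in WT, fell from 4.58 ± 0.11 to -0.88 ± 0.03 in log2. By sign, 7 of the 8 differences were positive and only that of Flt1 was negative, so the sum fell through Flt1 alone. The part of these markers in the higher Fabp4 was not tested.

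Epithelium expresses Fabp5, and of 11 measured alveolar epithelial and secretory markers 3 were called higher and 2 lower. Hopx, a homeodomain gene of alveolar type 1 cells, was 8.80-fold higher, Scgb1a1, the club cell secretoglobin, 3.05-fold higher, and the surfactant protein gene Sftpb at least 2.18-fold higher. Epcam, an epithelial adhesion molecule, was at least 98.1-fold lower, and Napsa, a protease of surfactant protein processing, was 3.11-fold lower. The median difference was 0.25. The summed signal was 24.6 and 24.7 in WT and 24.7 and 25.4 in Bach2KO, of which Abca3, the lipid transporter of lamellar bodies, gave 13.1 and 12.8 in WT and 12.1 and 12.7 in Bach2KO. The part of these markers in the higher Fabp5 was not tested.

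Fabp7, the brain member of radial glia and astrocytes, was the largest rise of the family. Its probe gave signals of 11.9 and 16.8 on the WT arrays, not well above background on either, and 945 and 883 on the Bach2KO arrays. In log2 these were -6.73 and -6.50 against -0.13 and -0.15. The WT values are at the detection limit and only bound the level, while both Bach2KO arrays were clearly measured. The Bach2KO mean was -0.14 ± 0.01. As a bound the difference was 6.18, at least 72.4-fold higher, which was rank 21 of 315 genes with such upward bounds. With the spike-in scaling it was at least 43.9-fold. The normexp correction, which raises dim values, gave 3.78 (13.7-fold), and normexp with quantile normalization gave 3.63.

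Of 10 glial and neural progenitor markers 6 were measured, and S100b, Erbb3 and Olig2, which define glial lineages, were among those not measured. Aldh1l1, a folate enzyme used as an astrocyte marker, was the 1 member called higher, at 1.52, and none was called lower. The summed signal was 12.9 and 12.6 in WT and 12.0 and 11.9 in Bach2KO, with a median difference of 0.16. Mbp, the myelin basic protein gene, gave 10.9 and 10.6 of this in WT and 7.20 and 7.17 in Bach2KO. Without Mbp the sum was 2.01 and 1.97 in WT and 4.8 and 4.75 in Bach2KO. That rise was led by Aldh1l1, which went from 0.57 ± 0.03 to 2.09 ± 0.02 in log2. The other 5 markers were called neither way, and by sign 4 differences of the list were positive and 2 negative. The part of these markers in the higher Fabp7 was not tested.

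Markers of other leukocytes moved with genotype. Of 17 measured monocyte and interstitial macrophage markers, 9 were called higher and 1 lower, the median was 1.11 with bounds, and their summed signal went from 66.4 and 68.5 on the WT arrays to 94.0 and 93.4 on the Bach2KO arrays. Lyve1, Folr2 and F13a1, which mark interstitial macrophages and monocyte-derived cells, were not well above background in WT. Of these, Folr2 was not called, with a bound of 0.99. With all 4 arrays required to be well above background, 7 markers of the list were called higher and 1 lower. The 1 lower member was the monocyte chemokine receptor gene Ccr2, at -2.11. By sign, 14 differences of the list were positive and 3 negative. Of 10 measured T cell markers 5 were called higher and 1 lower, and the median was 1.03 with bounds. Of those 5, 3 were measured only through the Bach2KO arrays and could not have been called lower. A filter requiring all 4 arrays left 2 called higher and 1 lower. The lower member was Cd2, an adhesion receptor, which differed by -1.93 and gave 54.2 and 54.6 of summed signals of 61.9 and 61.5 in WT, and 14.4 and 14.1 of 28.4 and 27.8 in Bach2KO. The other 9 had positive differences, and their sum was 7.67 and 6.87 in WT and 14.0 and 13.7 in Bach2KO. Il7r, the interleukin-7 receptor, was at least 361-fold higher, the T cell receptor chain genes Cd3d at least 6.15-fold and Cd3g at least 2.67-fold, Thy1 6.38-fold and the kinase gene Lck 2.97-fold. Of 9 measured neutrophil markers 3 were called higher and 0 lower, with a median of 1.10 and sums of 43.7 and 42.3 in WT and 54.7 and 55.1 in Bach2KO. Without Csf3r, the granulocyte colony-stimulating factor receptor and the brightest of them, the sums were 4.04 and 3.83 in WT and 23.1 and 25.1 in Bach2KO. That rise was led by S100a8, which went from 0.44 ± 0.04 to 4.20 ± 0.08 in log2. By sign, 7 neutrophil markers were above 0 and 2 below, and 6 were called neither way. Of the 3 called higher, 2 were measured only through the Bach2KO arrays and could not have been called lower. Where all 4 arrays had to be well above background, 1 neutrophil marker was called higher. The part of these cells in the Fabp differences was not tested.

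**Figure D3:**
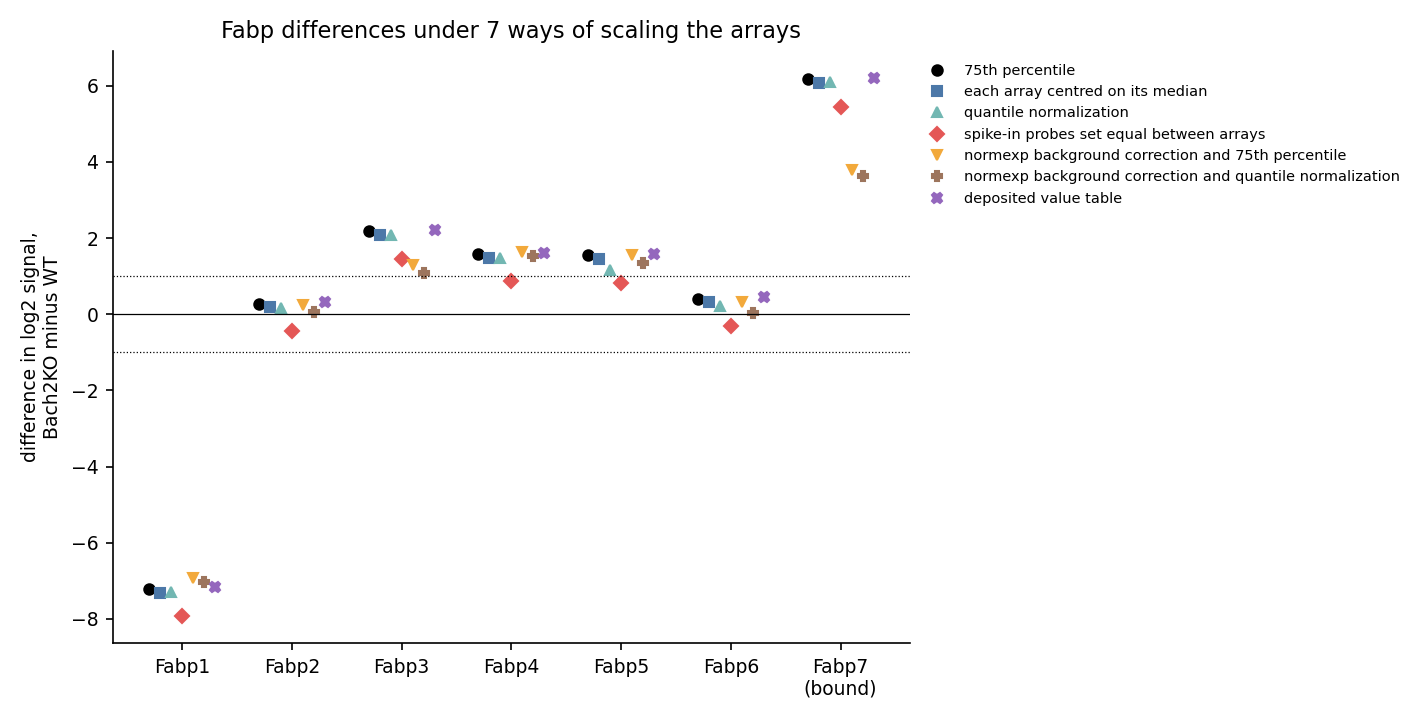
Log2 difference, Bach2KO minus WT, of each Fabp gene under the 7 ways of scaling or correcting the arrays, with Fabp7 at its bound. Fabp1 stays between -7.93 and -6.93, Fabp4 and Fabp5 drop below 1 only with the spike-in scaling, and Fabp7 drops to 3.78 and 3.63 with normexp.

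The wider pathway was described with lists of genes that act beside the Fabps, chosen for their roles. Of 15 other intracellular lipid-binding genes 11 were measured, 0 were called lower, and the median difference was 0.26. The count of 0 lower held under 13 of the 18 alternatives, and up to 2 were called lower under the others.

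Genes that bring fatty acids into the cell and activate them moved both ways. Of 18 genes 17 were measured, 5 were called higher and 2 lower, and the median was -0.10. Cd36, the fatty acid translocase and scavenger receptor, rose from 2.03 ± 0.03 to 4.04 ± 0.02, which was 4.03-fold. Acsl3, an acyl-CoA synthetase of lipid droplets, was 7.81-fold higher, and the fatty acid transporter gene Slc27a6, not well above background in WT, was at least 9.59-fold higher. Slc27a3, of the same transporter family, was 3.98-fold lower, but it was not called with normexp, at -1.10. With the spike-in scaling the list had 3 higher and 4 lower.

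The nuclear receptors that Fabps serve, and their partners, differed in 1 call. Of 15 genes 13 were measured, with 0 higher, 1 lower and a median of -0.17. Rara, a retinoic acid receptor, was 7.21-fold lower, from 4.94 ± 0.03 to 2.10 ± 0.00 in log2. Pparg, the receptor that Fabp4 serves and a determinant of alveolar macrophage identity, read 4.69 and 4.63 in WT and 4.54 and 4.57 in Bach2KO, a difference of -0.10 (-0.15 to -0.05). Ppara, the receptor paired with Fabp1, gave -0.03 (-0.14 to 0.09), with overlapping arrays. Nr1h4, the bile acid receptor, was dim and gave -0.43, and Hnf4a, a liver and gut factor, was not measured. With the spike-in scaling 5 receptors, Nr1h4 among them, were called lower.

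Of 22 PPAR target genes of lipid storage and oxidation 20 were measured, 0 were called higher, 5 lower and 15 neither way, and the median was -0.42. By the sign of the difference alone 6 were above 0 and 14 below. Fabp4, named above as a PPAR-gamma target and called higher, is counted with the family and not in this list. Cidec, which enlarges lipid droplets, fell from 5.60 ± 0.01 to -0.49 ± 0.10 and was 68.3-fold lower. Angptl4, an inhibitor of lipoprotein lipase, was 3.18-fold lower, and Ehhadh, a peroxisomal oxidation enzyme, was 2.87-fold lower. Plin1 was 2.47-fold lower, a call that was lost with normexp at -0.57. With the spike-in scaling 10 were lower. At a threshold of 1.5-fold 3 were called higher, and with only same-numbered arrays compared 1 was.

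Triglyceride hydrolysis, the step that frees fatty acids for the Fabps, had 8 of 11 genes measured, 1 called higher and 1 lower, and a median of -0.07. G0s2, an inhibitor of the main triglyceride lipase, was 7.63-fold lower. Mgll, the monoglyceride lipase, was 2.68-fold higher, and at 0.70 was not called with the spike-in scaling. Pnpla2, that main lipase, gave 0.04, and Lipe, the hormone-sensitive lipase known to bind Fabp4, gave 0.29, and neither was called.

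Genes of bile acid handling, listed beside Fabp6, had 5 of 10 members measured. Only Abcc3, an exporter of bile acid and drug conjugates, was called, at 9.98-fold higher (from -3.11 ± 0.27 to 0.21 ± 0.12). The list's median was 0.13. The transporters Slc10a2, Slc51a, Slc51b, Abcc2 and Abcb11 were not measured.

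**Figure D4:**
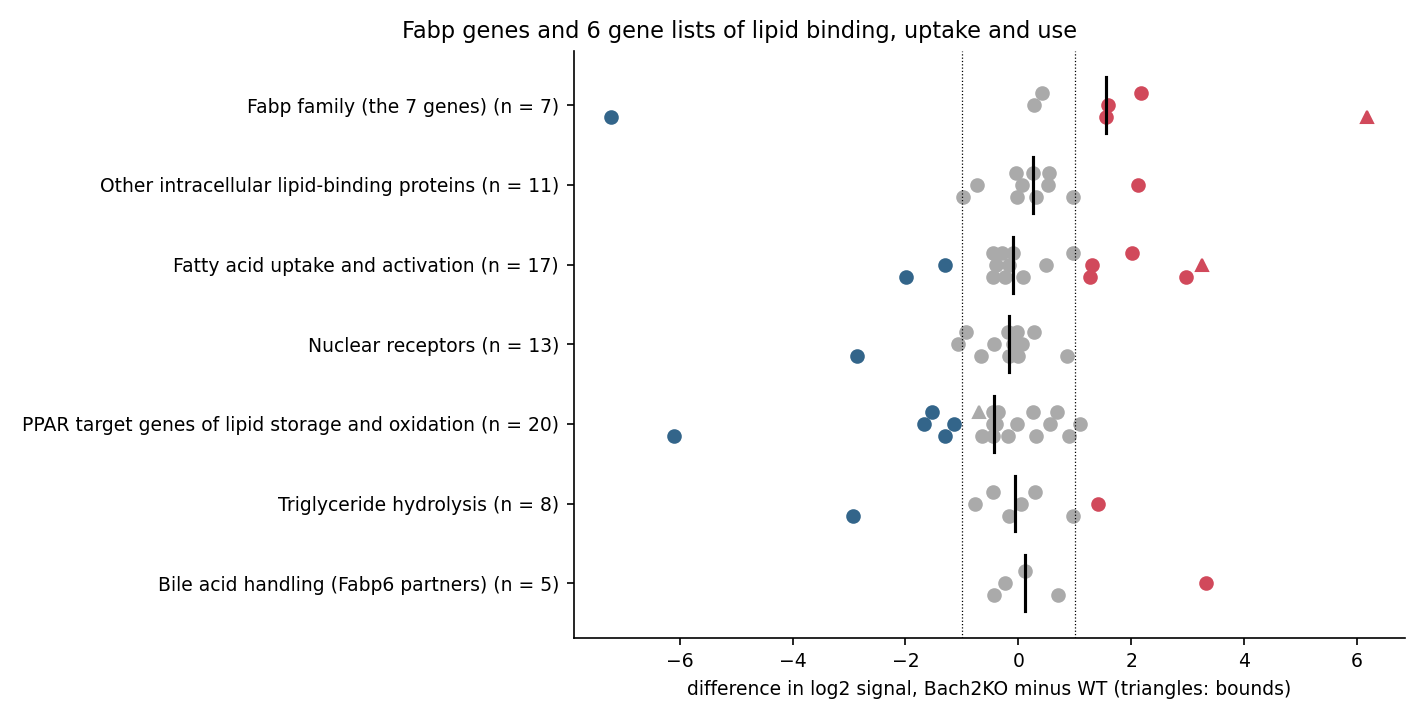
Log2 difference, Bach2KO minus WT, of each measured gene in the Fabp family and the 6 pathway lists; red points were called higher, blue points lower, grey points neither, triangles are bounds and black lines are medians. The family has 4 red points and 1 blue, and the PPAR target list has 5 blue points and no red.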

How the data were processed

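RNA from WT and Bach2KO alveolar macrophages was hybridised to 4 Agilent 1-colour arrays. Per the file headers, the deposited linear spot intensity had background subtracted and a spatial trend removed, array by array, by Agilent Feature Extraction 10.7.3.1. The submitters' processing notes give 9.1 instead. The deposited value table holds log2 values, which equalled the log2 processed signal minus a constant per array (SD of the difference 3.2e-07 to 3.5e-07). Its scale, lack of gene centring and direction were thereby settled, and its column medians were -3.58, -3.67, -3.53 and -3.45. The number of arrays limits the precision.

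From the processed intensity, control spots and outlier spots (109 to 136 per array) were left out, spots of a probe were averaged in log2, and the array's 75th percentile over non-control spots was subtracted. Symbols came through unversioned accessions from a RefSeq table of GRCm38.p6, and of 39429 probes 26055 had 1 symbol, 0 several and 13374 none. The array was designed on mm9, so probes have no coordinates here. A gene with several measured probes was represented by its brightest.

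The Fabp members, the 16 gene lists, the motifs and the call rule were chosen with earlier results of these data known. Named genes were all members, up to 4 called per list by size, 8 genes for their role, the 3 nearest genes in pattern and, chosen afterwards, chromosome 3 neighbours and called or bright markers that lead a list's sum, and 1 gene that these rules would name is not reported here. Alternatives were other scalings, normexp (limma 3.58.1 in R 4.3.3, offset 50, median spot signals), the value table, filters on dim probes, keeping outlier spots, averaging each gene's probes, 1.5-fold and 3-fold thresholds, array means, a replicate block and leaving out each array. Scripts ran in Python 3.11.15 and were tested on simulated data.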

Additional observations from a re-analysis of the deposited data

How the results depend on the processing

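Across 18 alternatives Fabp1 kept its direction and its call, with differences from -7.93 to -6.93. Fabp7 kept its call under the 17 that gave it a value, with bounds from 3.63 to 6.36. A filter requiring all 4 arrays gave no value for Fabp7. With the spike-in probes set equal, 2 members were called higher, Fabp3 at 1.46 and Fabp7 at a bound of 5.46. Fabp4 at 0.86 and Fabp5 at 0.83 were not called, while Fabp2 became -0.44 and Fabp6 -0.31. The median over all genes became -0.66, 627 genes were called higher and 3214 lower, and 16.3% of calls were higher against 58.7% in the reported analysis (1266 and 892). Pathway list members called went from 17 to 28. Centring on the median shifted every difference by -0.10. Quantile normalization gave 1.16 for Fabp5, and normexp with quantile normalization gave 1.09 for Fabp3, neither of which was called. At 1.5-fold, 29 list members, 2237 higher and 1933 lower genes were called. At 3-fold, 2 members were called higher (Fabp4 at 1.59 and Fabp5 at 1.55 were not), with 10 list members, 695 higher and 410 lower genes. Leaving out each array in turn gave -7.34 to -7.07 for Fabp1, 2.11 to 2.25 for Fabp3, 1.55 to 1.62 for Fabp4, 1.45 to 1.65 for Fabp5 and bounds of 6.0 to 6.36 for Fabp7, with 4 members higher and 1 lower each time. The replicate block, comparing only same-numbered arrays, gave -7.21 for Fabp1 and 6.18 for Fabp7, called 4 members higher and 1 lower and changed no member's call. Numbers name arrays of 1 RNA sample, so they pair no animals. The causes of these changes were not tested beyond what each scaling does by construction. Signal near background limits Fabp3, Fabp6 and the WT level of Fabp7.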
